A study of Mus musculus with 4 samples.

Results

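The interferon response genes examined here are 35 genes that interferons are known to induce, or that carry the interferon signal, in regulatory T cells sorted from Peyer's patches of mice. They were taken by symbol from the deposited table of raw counts, which held 24061 gene rows, and all 35 had a row. Peyer's patches are the lymphoid follicles of the small intestine. The cells were effector regulatory T cells, sorted as CD4+FoxP3+CD62L-, about 40000 per library, from mice aged 13 weeks of a C57BL/6 background backcrossed for 5 generations and housed without Helicobacter hepaticus. Every mouse carried FoxP3-YFP-cre, a Cre recombinase and yellow fluorescent reporter driven from Foxp3. The 2 libraries labelled wt came from mice with the genotype Maf+/+ FoxP3-YFP-cre and the 2 labelled flox from Maf flox/flox FoxP3-YFP-cre mice, in which Cre is meant to delete Maf in FoxP3-expressing cells. Maf encodes the transcription factor c-Maf, and the series asked which transcripts depend on it. The labels do not say whether libraries came from separate animals or pools, so p-values here reflect spread among libraries, which may be technical.

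Maf, the targeted gene, was high in the libraries labelled wt 1 and flox 1, at 149 and 122 CPM, and low in those labelled wt 2 and flox 2, at 1.98 and 0.725. CPM is the count scaled to a common library size, with sizes adjusted by the trimmed mean of M-values (TMM). Each labelled genotype therefore holds 1 library with high and 1 with low Maf counts, and the Maf level follows the number in the library's title. The titles' numbers also conflict with another label, the replicate tag, which is rep 1 on both wt samples and rep 2 on both flox samples. Genotype and number may be crossed in the labels, and which field is right was not settled here. The genes are given by that number (both libraries numbered 2, with low Maf, against both numbered 1, with high Maf) and by the labelled genotype, with no library moved to another group. The title number, the Maf level and anything else shared by same-numbered libraries cannot be told apart. The authors' deposited normalized table matched the grouping by number (100% of its values were recovered under it and 3.25% under the labelled genotype). Gene totals ranged from 19368745 to 24687897 counts, and 3 counts corresponded to 0.123 to 0.148 CPM.

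As background, type I interferons bind the receptor IFNAR and interferon gamma binds IFNGR, and both pass the signal through Janus kinases to STAT proteins. STAT2 and IRF9 are subunits of the complex ISGF3, which binds interferon-stimulated response elements, while interferon gamma acts largely through gamma-activated sites. The induced genes sense viral nucleic acid, block viral replication, feed back on the pathway and supply peptides to MHC class I. Regulatory T cells can respond to both kinds of interferon.

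The response element core GAAANNGAAA, searched on both strands in RefSeq promoter windows (GRCm38.p6, from 250 bases before to 50 after each start site), was present in 12 of the 26 members that had a window, or 46.2%. Among all tested genes with a window, 3.74% held it. The Oas3 promoter is printed because Oas3 was the only member past the threshold in the comparison by number. Its 250 bases before the start site lie at chr5:120777660-120777909 on the minus strand, and the capitals mark the match, which starts 75 bases before the start site (position -75).
Oas3 promoter: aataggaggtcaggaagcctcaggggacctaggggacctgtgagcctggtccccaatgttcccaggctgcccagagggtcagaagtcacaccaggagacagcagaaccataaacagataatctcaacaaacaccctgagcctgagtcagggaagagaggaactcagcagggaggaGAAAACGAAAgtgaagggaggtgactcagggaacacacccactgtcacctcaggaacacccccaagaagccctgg

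Shorter stretches are shown for 2 further members whose unadjusted p was under 0.05 by number (Irgm1 and Ifih1) and for 3 whose counts moved in opposite directions within the labels (Isg15, Igtp and Ddx58). Each match is printed with up to 10 bases on either side, on the strand of its gene. Capitals again mark the core, which reads as its reverse complement where it lies on the other strand.
Irgm1, chr11:48871425-48871460, minus strand: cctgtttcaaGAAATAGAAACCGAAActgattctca
Ifih1, chr2:62646206-62646233, minus strand: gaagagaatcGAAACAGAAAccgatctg
Isg15, chr4:156200865-156200906, minus strand: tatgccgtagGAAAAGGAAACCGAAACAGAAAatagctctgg
Igtp, chr11:58199512-58199541, plus strand: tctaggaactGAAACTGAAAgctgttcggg
Ddx58, chr4:40239804-40239833, minus strand: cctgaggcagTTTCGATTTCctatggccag

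These stretches were chosen among members with a match. Of the other members with an unadjusted p under 0.05 by number, Psmb9 and Irf9 had no match in their windows. Mx2 had no window. Irgm1 has 2 matches that share bases, starting at positions -30 and -24, and Isg15 has 3. The match of Ifih1 lies 32 bases and that of Ddx58 2 bases after the start site. The gamma-activated site core TTCNNNGAA was in 8 of the 26 windows (30.8%, against 8.48% of tested genes). The letters TGCTGA are a half-site of the element that MAF proteins recognise. They were in 6 of 26 windows (Oas3, Irgm1, Ifit1, Ifit2, Tap1 and Psmb9, 23.1%, against 18.5%). Of the 26 windows, 15 belonged to members that were higher without overlap in the libraries numbered 2. The response element core was in 53.3% of these and 36.4% of the other 11, and the gamma-activated site core in 40% and 18.2%. TGCTGA was in 40% and 0%. None of these differences was tested. The split was made from the same counts by number, on few windows. The shares among all tested genes that were higher without overlap were not counted, so the split cannot link a motif to the Maf level. The windows of Tap1 and Psmb9 share 275 bases, so these are not separate sequences. Different motifs were counted separately and may share bases, and a match is a description, not a bound site.

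All 35 members passed the filter on low counts. Their levels spanned a wide range: 8 had a mean over the 4 libraries above 100 CPM, 19 lay between 10 and 100, and 8 were below 10. Per kilobase of exon, over all annotated exons of a gene, Psmb8 was highest at a mean of 107.7 CPM per kb. The order of genes depends on that annotation. Next were Igtp at 93.9, Irf1 at 73.6, Isg15 at 69.3 and Tap1 at 61.7. The libraries of these neighbours overlapped: Psmb8 ranged from 100.2 to 125 CPM per kb and Igtp from 81.2 to 109. The lowest were Ifi44 at 0.254, Oas2 at 0.353, Mx1 at 0.495 and Mx2 at 0.770 CPM per kb. For 23 members the highest library was under 1.5 times the lowest, and for 7 it was over 2 times. The library labelled wt 1 was the highest for none of the 35 and the lowest for 17.

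**Figure D1:**
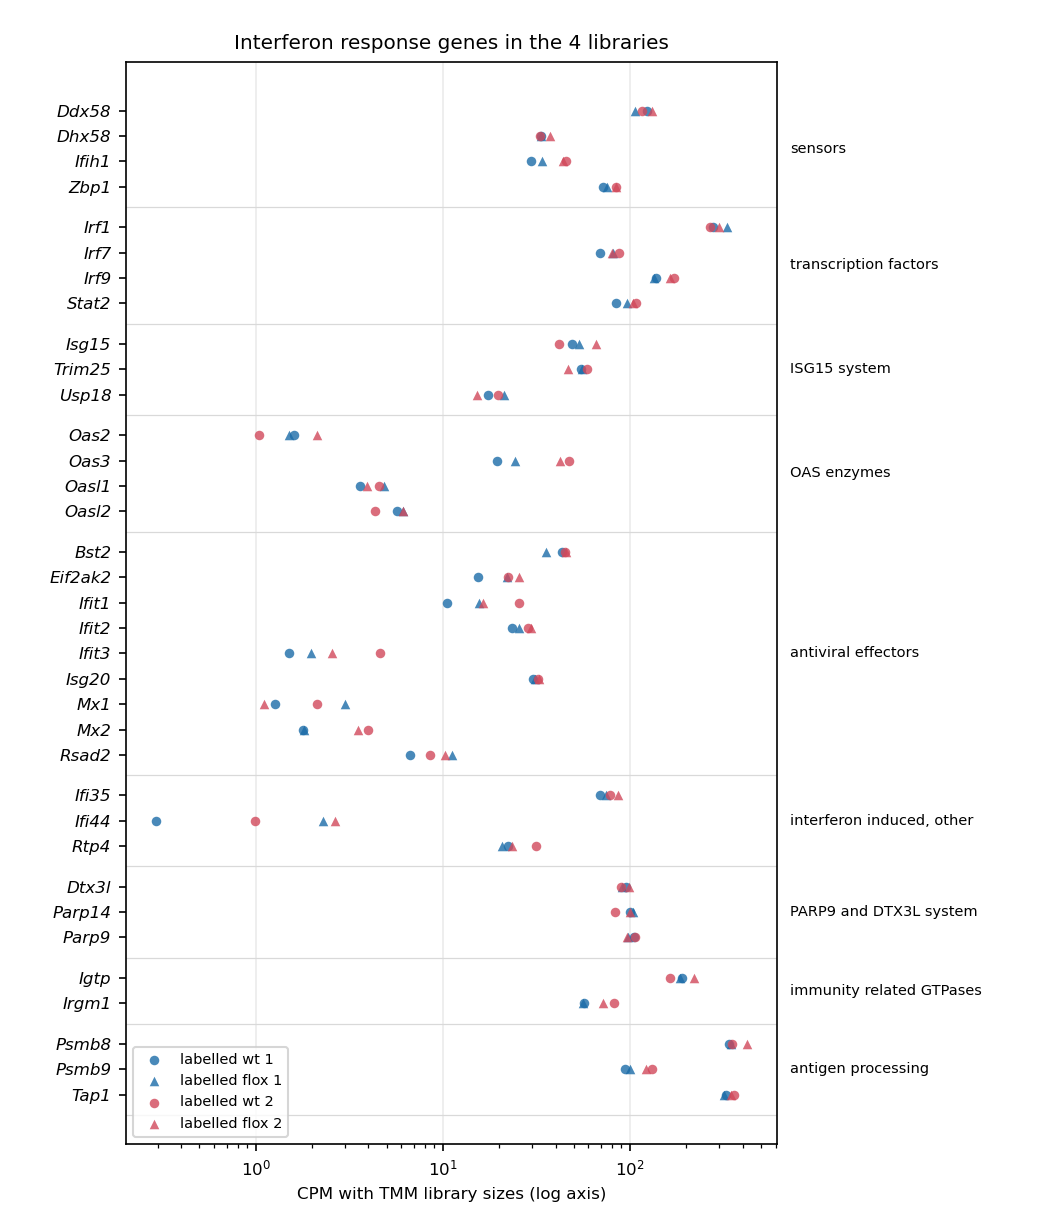
CPM (log axis) of each of the 35 interferon response genes in the 4 libraries, grouped by role. Blue points are libraries numbered 1 (high Maf), red points those numbered 2 (low Maf), circles are labelled wt and triangles labelled flox. The colours separate widely for Oas3 (19.4 and 24.3 against 47.3 and 42.2 CPM) and for Mx2 (1.80 and 1.80 against 4.0 and 3.53), while most genes differ little between libraries.

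By number, most interferon response genes were slightly higher in the libraries with low Maf, and 1 passed the test. Oas3 rose 2-fold, and no member was called lower. Of the 35, 28 had a positive and 7 a negative fitted log2 fold change, with a median of 0.156, a lower quartile of 0.02 and an upper quartile of 0.345, against a median of 0.009 over all 13022 tested genes. In 18 of 35 (51.4%) both libraries numbered 2 were above both numbered 1, and in none were both below. Over all tested genes these shares were 22.7% and 22.5%. The edgeR quasi-likelihood test with Benjamini-Hochberg adjustment over all genes called 1 member higher and 0 lower, and over all genes 0.399% higher and 1.41% lower. At an unadjusted p under 0.05 there were 6 members (17.1%, against 13.6% of all tested genes), each with a positive change. DESeq2 and limma-voom each called 1 member, also Oas3, and 0 lower.

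The count of 18 came from the members' CPM, and the members are not independent of one another, since genes of 1 pathway can move together. The fitted changes were mostly small: 31 of 35 (88.6%) were under 0.5 on the log2 scale in size, against 81.4% of all tested genes. For 28 members the 95% interval of the fitted change lay within 1 log2 unit of 0 on both sides. Without the library labelled flox 2, which stood apart in heat shock genes (9910 CPM summed over 9 genes, against 3157 to 3781 in the others), the median was 0.103, 24 members were positive and 2 were called (Oas3 and Irgm1). Without wt 1 and without flox 1 no member was called, with an adjusted p for Oas3 of 0.202 and 0.0526 in edgeR's test.

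**Figure D2:**
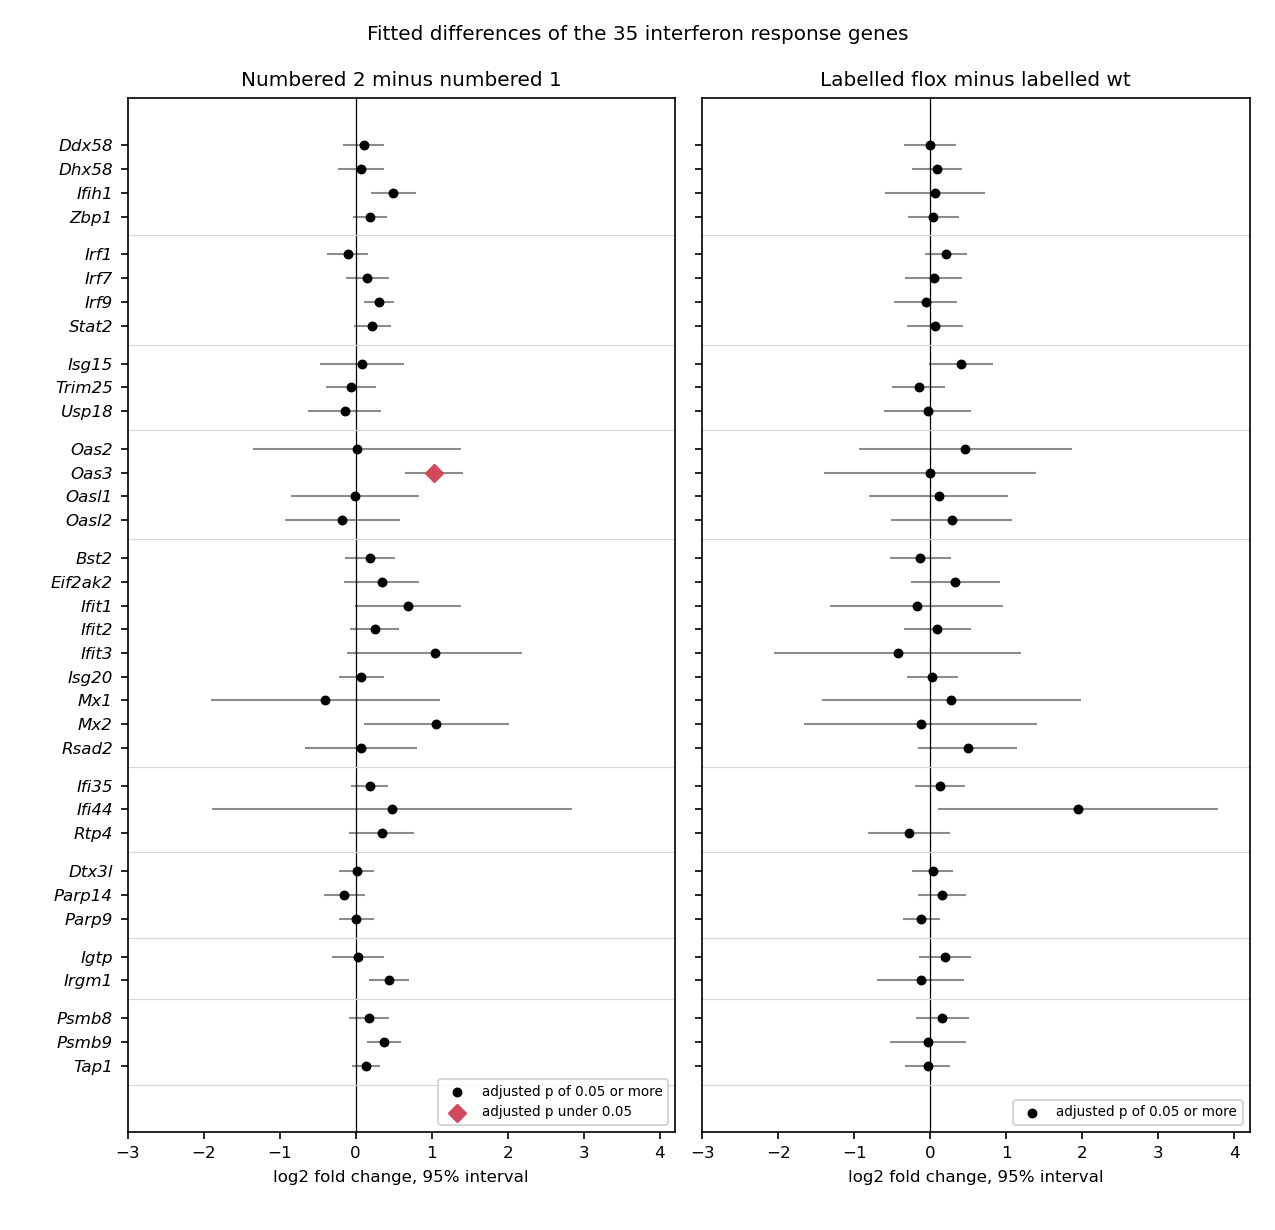
Fitted log2 fold changes (points) with 95% intervals (lines) of the 35 genes, in the same order and grouping by role, for numbered 2 minus numbered 1 (left) and labelled flox minus labelled wt (right). The red diamond is Oas3, the only member with an adjusted p under 0.05 in either comparison; its change by number was 1.03.

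**Figure D3:**
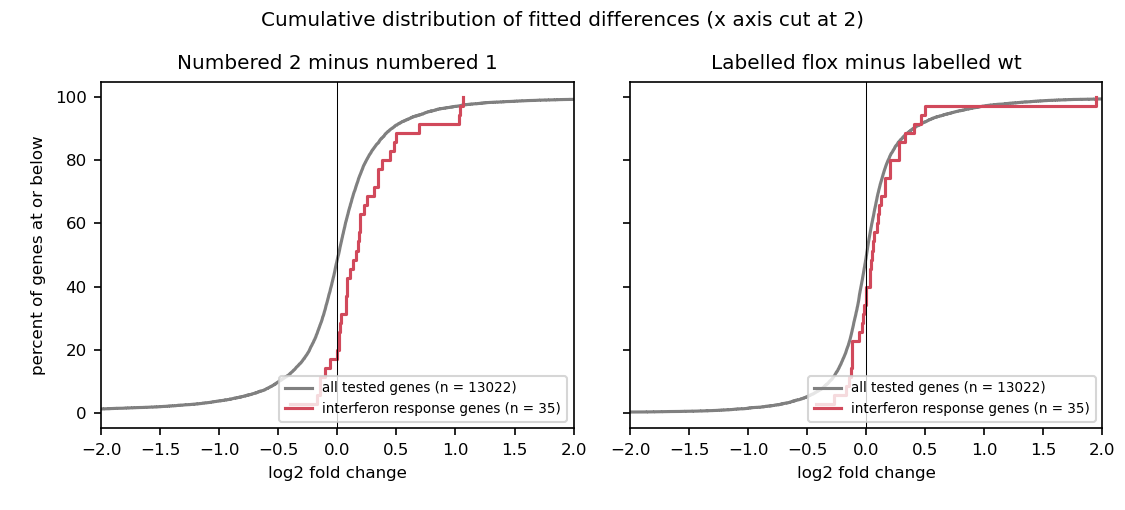
Percent of genes (vertical axis) at or below each fitted log2 fold change (horizontal axis, shown from -2 to 2) for the 35 interferon response genes in red and all 13022 tested genes in grey. The red curve lies to the right of the grey one over most of its length by number, with medians of 0.156 and 0.009, and closer to it by labelled genotype, with medians of 0.0447 and 0.001.

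The sensors detect viral RNA or Z-form nucleic acid in the cytoplasm. Ifih1 encodes MDA5, the sensor of long double-stranded RNA. It had 29.4 CPM in wt 1 and 33.8 in flox 1, against 45.3 in wt 2 and 44.1 in flox 2. Both libraries numbered 2 were thus above both numbered 1, with a log2 fold change of 0.50 (SE 0.13) and an edgeR adjusted p of 0.142, so that Ifih1 did not pass the threshold. Zbp1, the Z-nucleic acid sensor, had 71.6 and 75.7 CPM in the libraries numbered 1 and 83.7 and 84.2 in those numbered 2. Ddx58, which encodes RIG-I, overlapped between the numbers at 106 to 131 CPM, and Dhx58, which encodes the related LGP2, at 33.2 to 37.3.

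Among the transcription factors, Irf9 and Stat2 are the DNA-binding and STAT subunits of ISGF3. Irf9 had 138 and 134 CPM in the libraries numbered 1 and 173 and 164 in those numbered 2, a log2 fold change of 0.31 (SE 0.08, edgeR adjusted p = 0.161). Stat2 had 84.3 and 96.4 CPM against 107 and 104. Neither passed the threshold, although neither overlapped between the numbers. Irf7, which amplifies the type I response, ranged from 68.8 CPM in wt 1 to 87.6 in wt 2 and overlapped. Irf1, which drives much of the interferon gamma response, went the other way within each label, with 277 CPM in wt 1 and 266 in wt 2, and 329 in flox 1 and 297 in flox 2; the flox libraries were above the wt ones.

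In the ISG15 system, Isg15 is a ubiquitin-like modifier, Usp18 its protease and a brake on IFNAR signalling, and Trim25 a ubiquitin ligase that activates RIG-I. None of these genes separated the libraries by number. Isg15 had 48.7 and 53.1 CPM in the libraries numbered 1 (wt, then flox) and 41.6 and 66.2 in those numbered 2. Usp18 ranged from 15.2 to 21.2 CPM and Trim25 from 46.7 to 58.8, each lowest in flox 2.

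The OAS enzymes make the second messenger that activates RNase L. Oas3 (chromosome 5, 120753098 to 120777661, minus strand, mm10) had 19.4 CPM in wt 1 (399 counts), 47.3 in wt 2 (957), 24.3 in flox 1 (594) and 42.2 in flox 2 (874). Within each label the library numbered 2 was higher, by 2.44-fold in wt (95% counting interval 2.17 to 2.75) and 1.74-fold in flox (1.56 to 1.93). Its log2 fold change by number was 1.03 (SE 0.16, edgeR adjusted p = 0.0332). The other genes of this family overlapped between the numbers: Oas2 at 1.04 to 2.13 CPM, Oasl1 at 3.60 to 4.87 and Oasl2 at 4.35 to 6.10. Oasl1 and Oasl2 encode OAS-like proteins.

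The antiviral effectors include proteins that bind foreign RNA, block translation or trap virus at the membrane, and 7 of 9 were higher without overlap in the libraries numbered 2. Over all tested genes this share was 22.7%, and the effectors are 1 of 9 role groups, in which the count ran from 0 of 3 to 3 of 3. Mx2, a dynamin-like GTPase gene, had 1.80 and 1.80 CPM in the libraries numbered 1 and 4.0 and 3.53 in those numbered 2. Its log2 fold change was 1.06 (SE 0.40, edgeR adjusted p = 0.315), the largest of any member by number, at low counts. Ifit1, which binds viral RNA caps, had 10.5 CPM in wt 1 and 25.6 in wt 2, but 15.6 in flox 1 and 16.4 in flox 2. The separation of Ifit1 thus rested on wt 2, since the flox libraries were nearly level; the log2 fold change was 0.69 (SE 0.29, edgeR adjusted p = 0.372). Ifit3 showed the same order at 1.51 and 4.60 CPM in wt and 1.97 and 2.56 in flox (log2 fold change 1.04, SE 0.48, edgeR adjusted p = 0.423).

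Eif2ak2 encodes PKR, the kinase that shuts off translation on double-stranded RNA. It had 15.5 and 22.1 CPM in the libraries numbered 1 and 22.4 and 25.4 in those numbered 2, so its groups were barely apart. Ifit2 had 23.3 and 25.5 CPM against 28.4 and 29.7. The exonuclease gene Isg20 at 30.3 to 32.6 CPM and the tetherin gene Bst2 at 35.6 to 45.3 were also apart, by little. Rsad2, which encodes viperin, had 6.71, 8.55, 11.2 and 10.3 CPM in wt 1, wt 2, flox 1 and flox 2 and overlapped between the numbers. Mx1 had the most negative fitted change by number of the 35 members (-0.40) but ranged only from 1.11 to 2.99 CPM. The Mx genes are defective in most laboratory mice, and the annotation lists Mx2 as a polymorphic pseudogene.

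Irgm1 and Igtp are immunity-related GTPases that act on membranes around intracellular pathogens. Irgm1 had 56.9 and 56.2 CPM in the libraries numbered 1 and 82.4 and 71.5 in those numbered 2. The 2 numbers did not overlap, and the log2 fold change was 0.44 (SE 0.11, edgeR adjusted p = 0.137). Igtp had 189 and 164 CPM in wt 1 and wt 2, and 186 and 220 in flox 1 and flox 2, so that it was lower in the library numbered 2 within wt and higher within flox.

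All 3 antigen processing members were higher without overlap in the libraries numbered 2 (22.7% of all tested genes), and none passed the threshold. Of 10 further antigen processing genes, 1 was higher and 1 lower without overlap. Of these 10, 4 had a positive and 6 a negative change, with a median of -0.005. Psmb9 and Psmb8 are catalytic subunits of the immunoproteasome, which cuts peptides for MHC class I, and Tap1 is a subunit of the transporter that carries them into the endoplasmic reticulum. Psmb9 had 94.4 and 101 CPM against 131 and 121, a log2 fold change of 0.37 (SE 0.09, edgeR adjusted p = 0.131). Psmb8 had 339 and 345 CPM against 349 and 424, and Tap1 had 324 and 320 against 359 and 348. Exons of Tap1 and Psmb9 share 212 bases on opposite strands, and whether the counting used strand is not given in the sources used here.

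Parp9, Parp14 and Dtx3l, an ADP-ribosylation and ubiquitin ligase system of the interferon response, did not separate the libraries by number. Parp9 had 105 and 97.3 CPM in the libraries numbered 1 and 106 and 96.8 in those numbered 2. Dtx3l ranged from 89.9 to 98.7 CPM and Parp14 from 83.4 to 104. Of the remaining induced genes, Ifi35 had 69.2 and 74.5 CPM against 77.8 and 85.9, and Rtp4 had 22.4 and 20.8 against 31.3 and 23.5. Both were higher without overlap, Rtp4 mainly through wt 2.

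The number comparison can also be read within each label, where it sets 1 library against 1 and only counting error can be given. The library numbered 2 was higher in both labels for 19 members, lower in both for 3 (Oasl2, Irf1 and Parp14) and in opposite directions for 13. For 12 members both 95% counting intervals were above 1: Oas3, Mx2, Irgm1, Ifih1, Psmb9, Irf9, Eif2ak2, Stat2, Ifit2, Zbp1, Ifi35 and Tap1. For 1, Irf1, both were below 1, at 0.960 (0.925 to 0.997) within wt and 0.904 (0.874 to 0.935) within flox. For 4 the intervals lay on opposite sides of 1 (Isg15, Ddx58, Mx1 and Igtp). These counts within labels were not made over all tested genes, so they cannot be set against a share. Counting intervals are narrow at high counts: those of Tap1 were 1.07 to 1.15 within wt and 1.05 to 1.12 within flox. The ratios ran from 0.647 to 3.39 within wt and from 0.372 to 1.96 within flox. The median log2 ratio of the members was 0.226 for wt 2 over wt 1 and 0.176 for flox 2 over flox 1.

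By labelled genotype, no interferon response gene passed the threshold. The members' median log2 fold change, flox minus wt, was 0.0447, against 0.001 over all tested genes, with 21 positive and 14 negative. In 7 members (20%) both flox libraries were above both wt libraries, and in 1 they were below. Over all tested genes these shares were 13.2% and 13.8%. The edgeR quasi-likelihood test called 0.00768% of all genes higher and 0% lower, and 0 members; DESeq2 and limma-voom called 0 members too, and 1 member (Ifi44) had an unadjusted p under 0.05. For 25 members the 95% interval lay within 1 log2 unit of 0.

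Ifi44, an interferon-induced gene of little-known function, had 0.292 CPM in wt 1 (6 counts), 0.988 in wt 2 (20), 2.29 in flox 1 (56) and 2.66 in flox 2 (55). Both flox libraries were above both wt libraries, with a log2 fold change of 1.94 (SE 0.73) and an edgeR adjusted p of 1. Isg15, with the values given above, had a log2 fold change of 0.40 (SE 0.16, edgeR adjusted p = 1). Rsad2, Irf1, Dhx58, Oasl2 and Parp14 were the other genes with both flox libraries above, and Parp9 the one with both below, at 105 and 106 CPM in wt and 97.3 and 96.8 in flox. Of the 18 members that separated by number, none separated by genotype, as 4 libraries cannot do both. Without the library labelled wt 1 the members' median turned to -0.0493, and without wt 2 it was 0.186.

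Upstream of these genes, 2 genes of the interferon gamma receptor, Jak2 and Ifngr2, were lower in the libraries numbered 2. Of 9 listed receptor and kinase genes 8 were tested, and these 2 were called lower and 0 higher, beside 1.41% and 0.399% of all tested genes. Jak2, the kinase of the interferon gamma receptor, had 550 CPM in wt 1 and 557 in flox 1, against 309 in wt 2 and 290 in flox 2. Its libraries numbered 1 were almost level and far above the others (log2 fold change -0.89, SE 0.08, edgeR adjusted p = 0.00647). Ifngr2, the signalling chain of that receptor, had 96.3 and 81.7 CPM in the libraries numbered 1 and 40.4 and 46.0 in those numbered 2 (log2 fold change -1.04, SE 0.13, edgeR adjusted p = 0.017). Neither was called without the library labelled wt 1 (edgeR adjusted p = 0.0649 and 0.121). Jak2 also serves several cytokine receptors. In 5 of the 8, both libraries numbered 2 were below both numbered 1 (22.5% of all tested genes), and in 1 they were above (22.7%). Among the 5 was Ifnar1, with 241 and 279 CPM against 204 and 214. Tyk2, a kinase of the type I receptor and the one gene above, had 199 and 200 CPM against 214 and 220, and Jak1 overlapped.

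Of 9 interferon genes listed, 8 were at or near 0. Ifnb1, Ifna1, Ifna2, Ifna4, Ifnk and Ifnl3 had 0 counts in all 4 libraries, which allows up to 0.123 to 0.148 CPM per library at 3 counts. Ifng, which encodes interferon gamma and was the one gene of the 9 that was tested, had 4.28, 6.08, 5.36 and 20.6 CPM in wt 1, wt 2, flox 1 and flox 2. It was thus highest in flox 2, and its edgeR adjusted p by number was 0.395.

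Of 53 further interferon response genes fixed as a list, 51 had a row and 45 were tested. By number 5 were called higher and 0 lower, beside 0.399% and 1.41% of all tested genes. There were 18 with an unadjusted p under 0.05 (40%, against 13.6% of all tested genes). In 27 both libraries numbered 2 were above and in 1 below, against 22.7% and 22.5% of all tested genes. Their median log2 fold change by number was 0.243, with 36 positive and 9 negative. By labelled genotype 0 were called by edgeR, DESeq2 or limma-voom and 2 had an unadjusted p under 0.05. Their median was then -0.044. As for the members, this list was drawn up with results of these data known, so the direction is no independent evidence.

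Ms4a4b, a T cell membrane protein gene, had 419 and 389 CPM in the libraries numbered 1 and 697 and 657 in those numbered 2 (log2 fold change 0.74, edgeR adjusted p = 0.0115). Ifi27l2a, a strongly interferon-induced gene, had 67.5 and 75.7 CPM against 113 and 130 (0.76, adjusted p = 0.0291). Apol9b, an apolipoprotein L gene with the near-identical copy Apol9a, had 11.1 and 14.3 CPM against 32.6 and 27.3 (1.23, adjusted p = 0.0351). In each, the libraries within a number lay closer together than the numbers. Epsti1 had 92.6 and 77.1 CPM against 141 and 137 (0.71, edgeR adjusted p = 0.0364). Tnfsf10, which encodes the death ligand TRAIL, had 48.4 and 41.2 CPM against 74.9 and 71.4 (0.71, edgeR adjusted p = 0.0451). These 5 genes were not called once the library labelled wt 1 or flox 1 was left out.

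**Figure D4:**
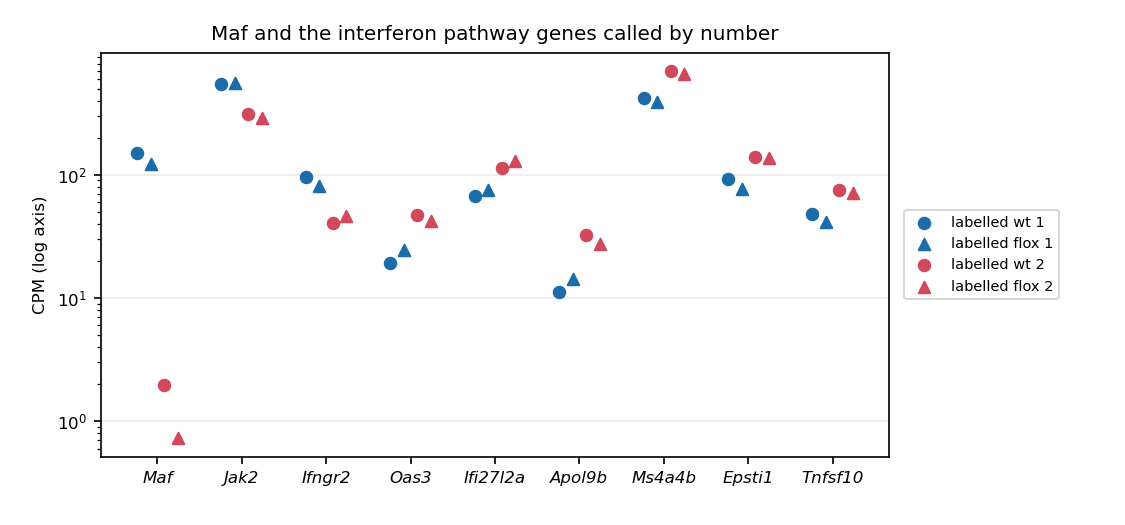
CPM (log axis) in each library of Maf and of the interferon pathway genes called by number. Blue marks libraries numbered 1 and red those numbered 2, circles are labelled wt and triangles labelled flox: Maf, Jak2 and Ifngr2 are lower, and Oas3, Ifi27l2a, Apol9b, Ms4a4b, Epsti1 and Tnfsf10 higher, in both red libraries.

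In the other fixed pathway lists no gene was called by the edgeR quasi-likelihood test by number. Over all 13022 tested genes, 13.6% had an unadjusted p under 0.05 in that test, and DESeq2 called 640. Of 11 further transcription factors, 3 had an unadjusted p under 0.05 and DESeq2 called 2, Irf4 and Nlrc5. Irf4, which directs effector differentiation, had 183 and 152 CPM against 91.6 and 117, and Nlrc5, the activator of MHC class I genes, had 204 and 240 against 295 and 303. Irf3 had 91.8 and 87.2 CPM against 110 and 105. Of 13 tested sensing and adaptor genes, 2 had an unadjusted p under 0.05 and DESeq2 called 0. Tbk1, the kinase that activates IRF3, had 117 and 126 CPM against 103 and 85.0, and Unc93b1, which delivers Toll-like receptors, had 72.7 and 73.8 against 97.4 and 84.4. Tmem173, which encodes STING, had 283 and 264 CPM against 311 and 302.

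Among 10 negative regulators, 1 had an unadjusted p under 0.05 (13.6% of all tested genes) and DESeq2 called 1, Socs3. Socs3 had 436 and 425 CPM in the libraries numbered 1 and 338 and 321 in those numbered 2. Socs1, which restrains the Janus kinases, had 156 and 159 CPM against 171 and 227, and Trex1, a DNA exonuclease, 33.7 and 38.5 against 39.6 and 49.2. Among 10 further antigen processing genes, 1 had an unadjusted p under 0.05 (again beside 13.6%) and DESeq2 called 1, Tapbpl, which edits MHC class I peptides. Tapbpl had 156 and 167 CPM against 104 and 129. It was lower in the libraries numbered 2, whereas B2m was at 3060 and 3113 CPM against 3262 and 3773 and Tap2 overlapped. By labelled genotype edgeR, DESeq2 and limma-voom called 0 genes of any of these lists.

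Signals of other cells were present and not even. Foxp3 had 91.0 to 104 CPM, Cd4 919 to 997 and Cd3e 1238 to 1369. Ctla4, an inhibitory receptor gene of regulatory T cells, was called lower in the libraries numbered 2, with 1626 and 2079 CPM against 3340 and 3342 (edgeR adjusted p = 0.027). Il2ra had 454 and 401 CPM in the libraries numbered 1 and 502 and 510 in those numbered 2 and did not pass the threshold. Markers of CD8 T and natural killer cells (8 of 8 with a row) summed to 56.7 and 63.8 CPM in the libraries numbered 1 and 87.6 and 102 in those numbered 2, with Ncr1 at 0 in wt 2 and flox 2. Klrb1c, called higher (22.5 and 21.2 CPM against 44.9 and 68.5, edgeR adjusted p = 0.0368), made that difference: without it the sums were 34.1 and 42.5 against 42.6 and 33.8. Markers of plasmacytoid dendritic cells, a main source of type I interferon, summed over 7 genes to 394 and 418 CPM against 320 and 278; Bst2 is also a member. Most of this came from Ccr9, also a gut homing receptor of T cells, at 228 and 270 CPM against 166 and 134. Without Ccr9 the sums were 165 and 148 against 153 and 144. Siglech was at 8.12, 8.94 and 7.66 CPM in wt 1, wt 2 and flox 1 and at 0.725 in flox 2. B cell markers (12 of 13 with a row) summed to 349 CPM in wt 1 and 510 to 659 in the others, epithelial markers (12 of 12) to 217 and 378 to 500, and myeloid markers (12 of 13) to 16.3 and 59.1 to 105, each lowest in wt 1, where 3 of the myeloid genes were at 0. The part of these cells, and of the heat shock genes in flox 2, in the interferon response values was not tested. In bulk RNA, fewer cells of a type and less RNA per cell cannot be told apart.

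Sequence shared between genes limits single values. By the annotation of the mm10 build, 16 of the 35 members share exon bases with another gene, among them Parp9 with Dtx3l (458 bases, opposite strands) and Igtp with Irgm2 (162 bases, same strand). Some reads of Ifit1, Ifit3, Apol9a and Apol9b may match close relatives too and have been divided or lost in counting. These levels are therefore uncertain. Oas3, Irgm1 and Ifih1 share no annotated exon bases with another gene.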

How the data were processed

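RNA-seq of 4 libraries, labelled wt 1, wt 2, flox 1 and flox 2, was analysed. Per the labels' protocols, Trizol and columns were used for the RNA and a Clontech kit for very small inputs for the libraries. TopHat2 2.1.1, HTSeq 0.6.1, edgeR 3.14 and genome build mm10 are named in the submitters' processing notes; their settings, the gene annotation and whether strand was used were not given in the sources used here. Raw counts were deposited by the authors per gene symbol (24061 gene rows; 5 summary rows, 66.6% to 67.2% of column totals, were left out). They also deposited a normalized signal for 10618 rows, of which 31 members; it matched classic edgeR pseudo-counts under grouping by title number (100% of 42472 values within a relative error of 1e-06) and was not tested.

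The main test was that of edgeR 4.0.16 in R 4.3.3 (filterByExpr, TMM, robust quasi-likelihood fit and F test), by title number and by labelled genotype, over 13022 genes in each, called at a Benjamini-Hochberg adjusted p under 0.05. The biological coefficient of variation was 0.194 and 0.273. Each standard error is the fitted change over the square root of its F value, and intervals are at 95%. Ratios of 2 libraries have exact binomial intervals, which cover counting error only. With 2 libraries against 2, the smallest two-sided p of an exact permutation test is 0.333, and such a test was not used. Alternatives were DESeq2 1.42.0, limma-voom (limma 3.58.1), edgeR's likelihood ratio test, and other scalings and filters. Further runs took the title number as a block in the genotype fit, or the genotype label as a term in the number fit. Each library was also left out in turn. The fit was tested on simulated data. By number it called 57 of 99 genes given a 2-fold change, 69 of 97 given a 4-fold change and 23 of 12598 given none. By genotype it called 27 of 99, 67 of 96 and 19 of 12558. In both comparisons, genes given no change made up a larger share of the calls than the threshold of 0.05. A gene that was not called may thus still differ, and a called gene may not.

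The members, gene lists and the comparison by number were chosen with earlier results of these data known. Genes named are all members, Maf, and of each pathway list every called gene or, where none was called, up to 3 with the smallest unadjusted p by number; other named genes (Ifnar1, Tyk2, Jak1, Apol9a, Irgm2 and cell markers) were added after their values were seen. Gene coordinates and exon lengths are from GENCODE M21 (mm10), and promoters from RefSeq (GRCm38.p6). No promoter is described for Dhx58, Oas2, Mx1, Mx2, Rtp4, Usp18, Parp9, Parp14 and Zbp1.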

Additional observations from a re-analysis of the deposited data

Results flagged for a closer look

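For 4 members the library numbered 2 differed from the library numbered 1 in opposite directions within the 2 labels, each beyond counting error. The difference between the labels was not tested, since each label holds 1 library per number. The share over all tested genes was not counted. Mx1 was 1.68 times as high in wt 2 as in wt 1 and 0.372 times as high in flox 2 as in flox 1, on 23 to 73 counts. Isg15 was 0.853 times as high within wt and 1.25 times as high within flox. Igtp was 0.868 times as high within wt and 1.18 times as high within flox. Ddx58 was 0.940 times as high within wt and 1.24 times as high within flox. Isg15, Igtp and Ddx58 were each highest in flox 2, the library with the high heat shock genes.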

How the results depend on the processing

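The members' median by number stayed positive under each alternative run, at 0.212 with library totals only (all genes then at 0.0644) and 0.103 to 0.230 with 1 library left out. Members called by number were 2 with the likelihood ratio test (adding Irgm1, adjusted p = 0.0453 in edgeR), 3 with no filter (adding Psmb9), 0 with the genotype label as a term (Oas3 at an edgeR adjusted p of 0.052) and 0 to 2 with 1 library left out. Genes called by number were 236, against 640 by DESeq2, 638 by the likelihood ratio test, 589 with no filter and 46 (without wt 1) to 525 (without wt 2) with 1 library left out. Members without overlap by number, an alternative set chosen after seeing the data, were 18 to 21 higher and 0 lower under 3 other scalings, and 19 to 26 higher and 0 to 8 lower without 1 library, where over all genes 34.7% to 38.7% were higher and 34.5% to 37.2% lower.

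By labelled genotype, where 1 gene was called, DESeq2 and the likelihood ratio test called 12, no filter 2, limma-voom 0 and leaving out any library 0. No member was called under any alternative run, and the median ranged from -0.0493 to 0.186 with 1 library left out. With the title number, which the Maf level follows, as a block, 1 gene and 0 members were called, with a median of 0.0734. Deviations of same-numbered libraries from their label means correlated at 0.264. With 2 libraries per label this is 1 value, and it includes whatever goes with the Maf level. It therefore cannot decide whether libraries were paired. In the comparison by number, to which the other losses given here also belong, Tnfsf10 was lost with limma-voom (adjusted p = 0.0512). Apol9b was lost with the genotype label as a term (edgeR adjusted p = 0.0574). Without wt 1, Jak2 (0.0649) and Ifngr2 (0.121) were lost too. With 2 libraries per group, the members under 5 CPM had the widest intervals by number. By labelled genotype that did not hold: the interval of Oas3 was -1.40 to 1.39, wider than that of Oasl1, at -0.806 to 1.03.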
